A study of Mus musculus with 30 samples.

Results

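Deletion C is a heterozygous deletion on the X chromosome of female mouse embryonic stem cells, and the 2 RNA-seq libraries of its 2 independently derived clones, Deletion C.1 and Deletion C.2, were compared with 13 libraries of 8 other deletion lines sequenced in the same batch. They are 15 of the 30 libraries of the series. The cells are F1 hybrids (129/Sv x Cast/Ei) in which the chromosomes inherited from the 129/Sv side (Mus) and the Cast/Ei side (Cast) can be told apart by sequence variants. All 15 libraries carry the genotype Rnf12 +/-, so the gene Rnf12, named Rlim in the count table, is missing from the Mus X in the reference lines as well. In addition, by design the 2 clones lack X positions 36657607 to 51952154 (mm10, 15.3 Mb) from the Mus X and keep that segment on the Cast X. The other lines carry Deletion A, B or AB (1 clone each) or Deletion D, F, H, I or K (2 clones each), which remove other segments of the Mus X and leave the C segment at 2 copies. The deletion lines were made with a resistance cassette under drug selection, and the clones are the replicates of a genotype. A Deletion C-G library of the same batch, whose longer deletion spans the C segment, is given beside the results without a test because it is a single clone. Per the study's methods, the Deletion AB and C-G clones lost more of the X than the region that was targeted.

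Both X chromosomes are active in undifferentiated female mouse embryonic stem cells. A cell that loses an X or silences it can raise the output of the remaining X, a process called X-chromosome upregulation. A segmental deletion asks the same question locally: when a stretch of one X is gone, a gene without compensation gives RNA of its remaining copy alone, whereas a compensated gene gives more from that copy. Here 3 measures bear on it. The total count gives all RNA of a gene, the count per copy divides it by the number of gene copies (0 difference on the log2 scale is equal output per copy), and the Cast count gives only reads that carry Cast variants, the allele that is present in every library.

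Of 218 annotated genes inside the deletion, 102 are protein-coding, and 47 (39 of them protein-coding) were expressed at a mean of more than 5 TPM (a level scaled for transcript length and library size) in the 2 XX Rnf12+/- libraries of another batch. The other 63 protein-coding genes did not reach that minimum, 30 of them members of the Rhox homeobox cluster, and 35 of the 63 had no read in any of the 15 libraries. Outside the deletion, 430 X-linked and 11204 autosomal genes were expressed. The 8 expressed genes that are not protein-coding are Firre, Snora69 and 6 pseudogenes. The 39 protein-coding genes fall into these roles: ribosomes and RNA processing (9 genes), membrane traffic (8), chromatin and transcription (6), mitochondria (4), the Rhox cluster (4), ubiquitin and cell death (3) and sugar chains and cell surface (2), with 3 genes in no role list.

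The 15 libraries held 8816184 to 10680026 counted reads each, and 12.18% to 12.65% of that number carried an allele. The 2 Deletion C clones differed by more than counting noise (chi-square of 5.07 per gene between them, against 4.19 to 30.0 for the other lines), so they were kept as separate samples. Their chromosome medians lay between -0.06 and 0.09 on the log2 scale. Among the reference libraries, Deletion I.1 stood apart on chromosomes 1 and 14 (median log2 ratios 0.51 and 0.49, with Mus shares of 68.0% and 65.6%), and Deletion F.2 stood apart on chromosome 8 (0.36, Mus share 37.2%). Without these 2 libraries, a check added after the data were seen, 1498 autosomal genes were higher and 1571 lower, 7 genes inside the deletion were higher and 7 lower per copy, and 33 were lower in total count. Markers of other cell types were summed in CPM (reads scaled to library size): the feeder fibroblast list (15 genes, none at 0) gave 2708 and 2757 in the clones against 1643 to 3365 in the other libraries, and the primitive endoderm list (14 genes, none at 0) gave 756 and 741 against 587 to 921.

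The promoters of the 4 protein-coding genes with the largest differences per copy among those that passed the test are printed because the results turn on these genes, which rose (Dcaf12l1, Lamp2) or fell (Bcorl1, Rnf113a1) per copy. The sequences are from RefSeq (GRCm38.p6), which gave a promoter for 34 of the 39 genes, and run from 250 bases before to 50 bases after the start of the gene on its own strand, with each CG in capitals. They lie at chrX:44790148-44790447 (Dcaf12l1, minus strand), chrX:38456411-38456710 (Lamp2, minus), chrX:48341108-48341407 (Bcorl1, plus) and chrX:37190972-37191271 (Rnf113a1, plus).
Dcaf12l1: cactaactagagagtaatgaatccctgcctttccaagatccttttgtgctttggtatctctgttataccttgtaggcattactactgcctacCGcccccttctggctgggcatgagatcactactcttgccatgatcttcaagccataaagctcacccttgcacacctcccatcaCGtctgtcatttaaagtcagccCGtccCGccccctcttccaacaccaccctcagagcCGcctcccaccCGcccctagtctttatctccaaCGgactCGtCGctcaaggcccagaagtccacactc
Lamp2: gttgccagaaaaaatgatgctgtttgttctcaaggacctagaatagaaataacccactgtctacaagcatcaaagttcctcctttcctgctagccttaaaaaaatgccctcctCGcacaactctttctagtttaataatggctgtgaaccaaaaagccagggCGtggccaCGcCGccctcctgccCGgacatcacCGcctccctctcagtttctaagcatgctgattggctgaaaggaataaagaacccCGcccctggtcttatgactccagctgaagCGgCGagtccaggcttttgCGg
Bcorl1: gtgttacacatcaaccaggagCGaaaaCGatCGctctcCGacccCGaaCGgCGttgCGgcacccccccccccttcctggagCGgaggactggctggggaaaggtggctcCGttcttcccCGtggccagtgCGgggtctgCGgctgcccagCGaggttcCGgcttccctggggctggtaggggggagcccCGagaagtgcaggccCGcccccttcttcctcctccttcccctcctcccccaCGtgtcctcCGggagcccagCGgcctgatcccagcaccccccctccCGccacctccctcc
Rnf113a1: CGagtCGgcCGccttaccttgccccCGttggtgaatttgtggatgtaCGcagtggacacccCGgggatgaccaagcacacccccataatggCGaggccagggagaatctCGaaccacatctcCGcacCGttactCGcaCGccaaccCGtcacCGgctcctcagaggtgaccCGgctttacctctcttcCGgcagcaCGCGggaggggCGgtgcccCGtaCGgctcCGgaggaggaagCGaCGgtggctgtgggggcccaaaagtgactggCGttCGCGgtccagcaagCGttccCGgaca
Dcaf12l1 held 9 CG, Lamp2 10, Bcorl1 21 and Rnf113a1 29. The other genes called per copy overlapped in this number, with 34 CG in Zbtb33, 29 in Rap2c, 18 in Rbmx2 and 14 in Cul4b, which were higher, and 22 in Upf3b, 21 in Utp14a, 21 in Aifm1 and 8 in Zfp280c, which were lower. The median over the 34 promoters was 16 CG, with a range of 0 to 34, and the median over all 32851 RefSeq promoters was 7. At least 10 CG were found in 23 of the 34, against 43.5% of all promoters. The motif CACGTG, which reads the same on both strands and contains a CG, was found in 4 of the 34 (C330007P06Rik, Bcorl1, Elf4 and Slc25a14), against 7.15% of all promoters. These are counts of letters in the reference, and no binding or methylation was measured here.

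The allelic reads showed the deletion first. Inside the segment, Mus reads made up 4.16% of allelic reads in Deletion C.1 (25 of 601, 95% Wilson interval 2.83% to 6.07%) and 3.04% in Deletion C.2 (17 of 559, interval 1.91% to 4.82%). In the 13 reference libraries the share was 52.3% to 58.7% with a median of 55.5%, so the groups were far apart. The Deletion C-G library gave 0.587% (4 of 682), and the 2 XCastO129 libraries, whose cells have no Mus X, gave 4.26% and 3.95%. On the X outside the segment, the Mus share of the clones was 50.4% and 50.8%. Of the 42 Mus reads left inside the segment, 32 fell in 4 genes, Lamp2 (7 and 6 reads), Zdhhc9 (5 and 3), Ocrl (3 and 3) and Apln (4 and 1). The intervals cover counting error only, and the part of feeder cells, whose marker sums are 2708 and 2757 CPM, was not tested.

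**Figure D1:**
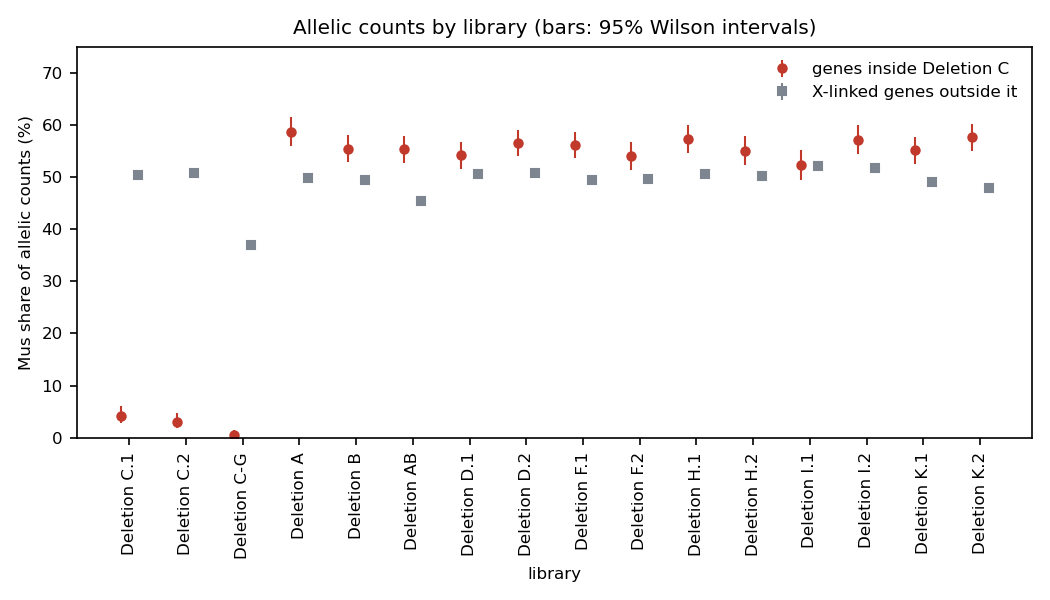
Mus share of allelic reads (percent, y axis) in each library (x axis), inside Deletion C and on the rest of the X, with 95% Wilson intervals as bars. Inside the segment the 2 Deletion C clones lie at 4.16% and 3.04% and the 13 other libraries between 52.3% and 58.7%, while on the rest of the X the clones lie at 50.4% and 50.8%.

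Most expressed genes inside the deletion had less RNA than in the reference libraries. These are bulk libraries, in which fewer cells that use a gene and less RNA per cell cannot be told apart. In total counts, 33 of the 47 expressed genes were lower in Deletion C and 1 was higher (edgeR's quasi-likelihood test, Benjamini-Hochberg adjusted over 11681 genes), beside 12.3% lower and 11.7% higher over all expressed genes. Of the 39 protein-coding genes, 31 were lower, 1 (Dcaf12l1) was higher and 7 (Nkrf, Rhox1, Rhox5, Rhox6, Rhox9, Zbtb33 and Lamp2) did not pass the test. The median total log2 fold change of the 39 was -1.07 (quartiles -1.37 and -0.75, range -2.21 to 0.88), which is 48.0% of the reference. The ratio lay between 40% and 60% for 20 genes, under 40% for 10 and over 60% for 9. By library, the median level of the 39 genes was 46.5% of the reference mean in each clone and 50.9% in Deletion C-G, and the reference libraries' own medians lay between -0.12 and 0.09 on the log2 scale. Both clones lay below all 13 libraries for 30 of the 39 genes, and Deletion C-G did so for 33. Without Deletion C.1, 26 of the 47 genes were lower in total count, and without Deletion C.2, 24 were.

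**Figure D2:**
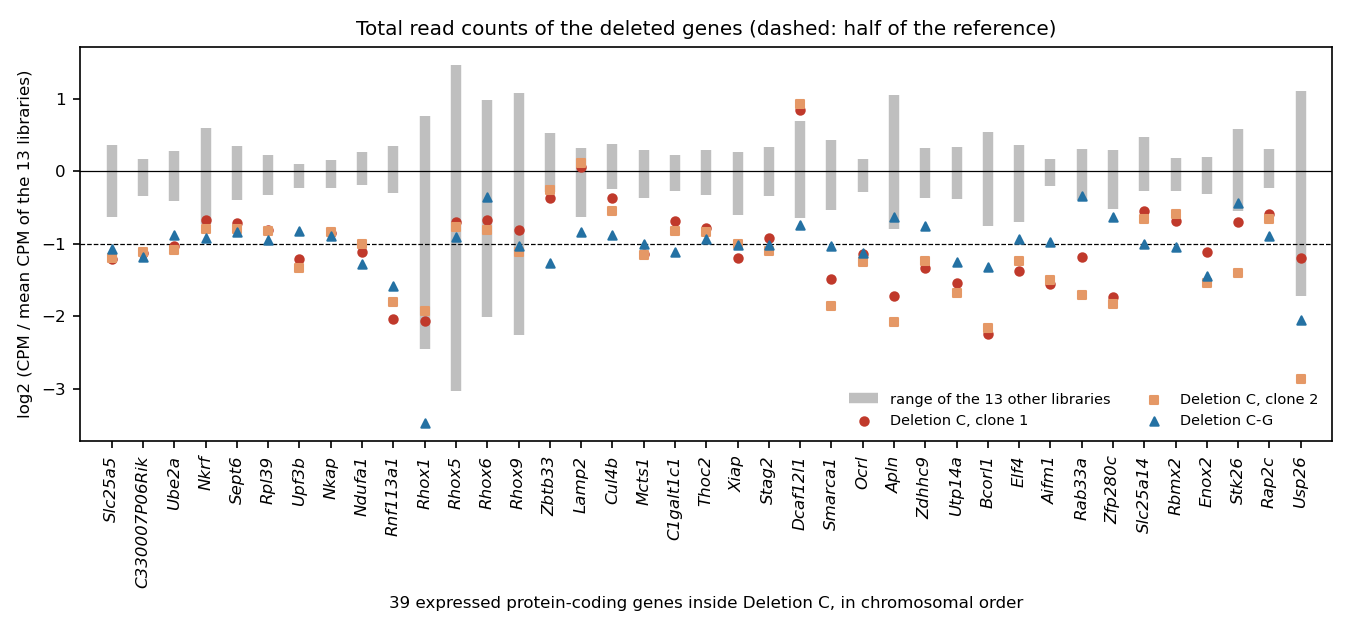
Total counts of the 39 expressed protein-coding genes inside Deletion C in chromosomal order (x axis), as log2 of CPM over the mean CPM of the 13 reference libraries (y axis), with grey bars for the range of the 13 libraries, points for each Deletion C clone and for Deletion C-G, and a dashed line at 50% of the reference. Most points of the 2 clones lie near the dashed line (median 46.5% in each clone), with Dcaf12l1 above the grey bar, Lamp2 inside it and Bcorl1 well below the line.

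By the median per copy, the genes inside the deletion stood where the rest of the genome stood. The median log2 fold change per copy was -0.07 over the 39 genes, -0.03 over all 11681 tested genes, -0.02 over the autosomal genes and -0.06 over the X genes outside. The count per copy takes the 2 alleles as equal, whereas Mus reads were 52.3% to 58.7% of allelic reads inside the segment in the reference libraries. A value of 0 need not be the level of an unchanged Cast copy, and the size of this shift was not tested. Of the 47 genes, 6 were higher (12.8%) and 8 lower (17.0%), beside 11.9% higher and 12.3% lower over the autosomal genes. Of the 39 protein-coding genes, 6 were higher and 6 lower (15.4% each), and 27 did not pass the test. Both clones lay above all 13 libraries for 6 of the 39 (15.4%) and below for 5 (12.8%), against 13.5% and 12.8% of autosomal genes. These shares are close to the background, so the counts alone give no result about the deleted genes as a group. Without Deletion C.1, 2 of the 47 genes were higher and 4 lower, and without Deletion C.2, 3 were higher and 3 lower.

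Dcaf12l1 (X:44786570-44790197, ENSMUSG00000045284), which encodes a WD-repeat protein of a family that binds the DDB1-CUL4 ubiquitin ligase, had the largest per-copy difference of the called protein-coding genes inside. Its total level was 38.5 CPM in Deletion C.1 and 40.8 CPM in Deletion C.2, against 13.8, 19.8 and 34.7 CPM for the lowest, median and highest of the 13 libraries and 12.8 CPM in Deletion C-G. Both clones thus lay above every library with 2 copies, although they have 1 copy, and the library with the longer deletion lay below all of them. The log2 fold change was 1.88 ± 0.23 (SE) per copy (edgeR adjusted p = 5.82e-05) and 0.88 ± 0.25 in total count (adjusted p = 0.0158). The call in total count was lost without Deletion C.1 (adjusted p = 0.114) or without Deletion C.2 (adjusted p = 0.16). Against the XX Rnf12+/- libraries of the other batch the difference in total count was 0.07 (adjusted p = 0.817), and that per copy was 1.07 (adjusted p = 0.0177). No allele-specific test could be made for Dcaf12l1, since it did not reach 20 Cast reads in both XX Rnf12+/- libraries.

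Among the genes of membrane traffic and signalling (8 expressed, 7 lower in total count), Lamp2 (X:38401357-38456454), a lysosomal membrane protein, was not lower in total count. It had 79.0 and 81.8 CPM in the clones against 48.9, 76.0 and 94.5 CPM in the reference libraries, and 42.3 CPM in Deletion C-G. Both clones lay within the range of libraries with 2 copies. Lamp2 had 7 Mus and 39 Cast reads in Deletion C.1, and 6 Mus and 43 Cast reads in Deletion C.2. In the XCastO129 libraries, which have no Mus X, it had 4 and 36 Mus reads beside 35 and 50 Cast reads. Its total and per-copy values include reads that are not of the Cast copy, and their source was not tested. The total difference was 0.08 ± 0.17 (edgeR adjusted p = 0.777) and the difference per copy was 1.08 ± 0.16 (adjusted p = 0.000231), also called against the XX Rnf12+/- libraries (0.64, adjusted p = 0.0116). Rap2c, a small GTPase, was the other gene of this group that was higher per copy (0.37 ± 0.13, edgeR adjusted p = 0.0416), a call that was lost without Deletion C.1 (adjusted p = 0.27), without Deletion C.2 (adjusted p = 0.188) and, with the replicate number as a block, at adjusted p = 0.0534. Its direction turned against the XX Rnf12+/- libraries (-0.38). The other members (Sept6, a septin, Ocrl, a lipid phosphatase, Zdhhc9, a palmitoyltransferase, Rab33a, Enox2 and Stk26) had per-copy differences of -0.43 to 0.24 that did not pass the test.

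The genes of ubiquitin and cell death (Ube2a, Cul4b, Xiap) were all lower in total count. Cul4b, the scaffold of a ubiquitin ligase, had 362 and 322 CPM in the clones against 397, 445 and 609 CPM in the reference libraries and 254 CPM in Deletion C-G, so that both clones lay below the reference but above 50% of it. Its per-copy difference was 0.54 ± 0.13 (edgeR adjusted p = 0.00546), lost without Deletion C.1 (adjusted p = 0.129). Ube2a, a ubiquitin-conjugating enzyme, and Xiap, an inhibitor of caspases, had per-copy differences of -0.07 ± 0.16 and -0.10 ± 0.20, with adjusted p of 0.802 and 0.759.

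Genes of translation and RNA processing (9 expressed, 8 lower in total count) moved in both directions per copy. Rnf113a1 (X:37191245-37192467), a spliceosome-associated RING finger protein, had 5.45 and 6.39 CPM in the clones against 18.2, 22.0 and 28.4 CPM in the reference libraries and 7.50 CPM in Deletion C-G. The clones lay below 50% of the lowest reference library, and the per-copy difference was -0.92 ± 0.17 (edgeR adjusted p = 0.00094), which was -0.72 with an adjusted p of 0.0952 against the XX Rnf12+/- libraries. Utp14a, a factor of small-subunit ribosome assembly, had 106 and 96.5 CPM against 237, 314 and 391 CPM, with 130 CPM in Deletion C-G. Its difference per copy was -0.62 ± 0.15 (edgeR adjusted p = 0.00613), and the adjusted p was 0.0579 without Deletion C.1 and 0.124 without Deletion C.2. Upf3b, of nonsense-mediated decay, was lower (-0.28 ± 0.10, edgeR adjusted p = 0.0448). The call was lost without either clone (-0.35 without Deletion C.1 and -0.21 without Deletion C.2). Other size factors (adjusted p = 0.0527), protein-coding genes only (0.0647) and no filter on low counts (0.171) ended it too. So did leaving out any of several single reference libraries. Rbmx2, a splicing factor, was higher (0.36 ± 0.12, adjusted p = 0.0304), also lost without Deletion C.1 (0.141) or Deletion C.2 (0.26). The ribosomal protein gene Rpl39, the mRNA export gene Thoc2, Mcts1, Nkap and Nkrf had per-copy differences of -0.15 to 0.27 that did not pass the test.

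Of the 6 genes of chromatin and transcription, 5 were lower in total count. Bcorl1 (X:48341358-48408049), a transcriptional corepressor, had the largest fall of the protein-coding genes, with 7.08 and 7.51 CPM in the clones against 19.9, 32.6 and 49.1 CPM in the reference libraries. Deletion C-G had 13.5 CPM. The per-copy difference was -1.21 ± 0.27 (edgeR adjusted p = 0.00379), with an adjusted p of 0.0714 without Deletion C.1 and 0.0657 without Deletion C.2. The zinc finger gene Zfp280c had 21.3 and 20.0 CPM against 49.8, 69.7 and 87.3 CPM (45.9 CPM in Deletion C-G), so both clones were below 50% of the reference median. It was lower per copy by -0.79 ± 0.19 (edgeR adjusted p = 0.00579), with 0.0667 without Deletion C.1 and 0.103 without Deletion C.2. Zbtb33, which encodes Kaiso, a reader of methylated DNA, had 13.2 and 14.3 CPM against 13.9, 15.6 and 24.6 CPM and 7.11 CPM in Deletion C-G. Deletion C.2 lay just above the lowest of the 2-copy libraries in total count, and the per-copy difference of 0.68 ± 0.18 (edgeR adjusted p = 0.0118) was lost without Deletion C.1 (0.0885), without Deletion C.2 (0.158) and against the XX Rnf12+/- libraries. The cohesin subunit gene Stag2 (-0.01), the chromatin remodeller gene Smarca1 (-0.66) and the transcription factor gene Elf4 (-0.32) did not pass the test per copy.

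All 4 mitochondrial genes were lower in total count. Aifm1, a mitochondrial flavoprotein that takes part in cell death, had 70.7 and 73.5 CPM in the clones against 182, 210 and 235 CPM in the reference libraries and 106 CPM in Deletion C-G. Both clones were below 50% of the lowest reference library, and the per-copy difference was -0.54 ± 0.09 (edgeR adjusted p = 0.000765), a call that was kept in every setting tried. Slc25a5, the ADP/ATP carrier and the most abundant gene inside the segment (median of 1559 TPM in the reference libraries), had 326 and 330 CPM against 488, 754 and 979 CPM. Its per-copy difference of -0.21 ± 0.17 did not pass the test, nor did those of the complex I subunit gene Ndufa1 (-0.06) and the carrier gene Slc25a14 (0.39). The sugar-chain gene C1galt1c1, the chaperone of an O-glycosylation enzyme, and Apln, a peptide hormone, were lower in total count and had per-copy differences of 0.25 and -0.90 with adjusted p of 0.269 and 0.135.

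The Rhox genes were the most variable. Rhox5, a homeobox gene of embryonic and reproductive tissue, had 36.0 and 34.3 CPM in the clones against 7.11, 58.3 and 162 CPM in the reference libraries. The clones lay inside a range that spans libraries of equal copy number, and the per-copy difference was 0.26 ± 0.75 (edgeR adjusted p = 0.837). Rhox1, Rhox6 and Rhox9 had per-copy differences of -0.99, 0.26 and 0.05 with SEs of 0.75, 0.60 and 0.71, so these libraries could not separate 1 copy from 2 copies for this cluster. The Rhox genes share similar sequences, and their reads can be divided unequally between copies. Among genes in no role list, C330007P06Rik was lower in total count and differed by -0.13 ± 0.13 per copy. Usp26 (12.5 and 3.94 CPM against 8.71, 25.5 and 61.6 CPM) was lower in total count (adjusted p = 0.0452) and differed by -0.80 ± 0.60 per copy.

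Firre and Gm14605 are not protein-coding, fell outside the rule for naming genes, and were added after their values were seen because they were the other 2 calls per copy. Firre, a long non-coding RNA known for its nuclear localisation, had 38.0 and 37.2 CPM in the clones against 136, 158 and 203 CPM in the reference libraries and 65.6 CPM in Deletion C-G. Its per-copy difference was -1.11 ± 0.14 (edgeR adjusted p = 5.82e-05) and was called in every setting tried. In the 13 reference libraries 81.8% of Firre's allelic reads were Mus, whereas the Mus share of the other 10 genes with enough Cast reads lay between 37.8% and 59.8%. Its Cast reads differed by -0.40 ± 0.23 (edgeR adjusted p = 0.274). Gm14605, a pseudogene at 0.287 and 0 CPM against 0.953 to 1.98 CPM, was lower per copy (adjusted p = 0.0173), which was lost without Deletion C.2 (0.297).

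The remaining Cast copy could be measured directly for 11 genes with at least 20 Cast reads in both XX Rnf12+/- libraries. Of these 1 (Lamp2) was higher in Deletion C, beside 5.43% called higher and 5% called lower of 7203 genes tested genome-wide by edgeR's quasi-likelihood test on Cast reads. No gene was called lower with edgeR in this comparison, while 2 were lower at an unadjusted p under 0.05, and DESeq2 and 6 other alternatives called 1, Zfp280c. The median log2 fold change of the 11 genes was -0.05, against -0.02 over all 7203, with 5 genes above 0 and 6 below. Lamp2 had 39 and 43 Cast reads in the clones against 9 to 28 in the reference libraries and 28 in Deletion C-G. Its Cast difference was 1.13 ± 0.26 (edgeR adjusted p = 0.00742), which did not hold without Deletion C.1 (0.087) or without Deletion C.2 (0.144) and held against the XX Rnf12+/- libraries (1.09, adjusted p = 0.0186).

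Besides Firre, Zfp280c and Utp14a were lower per copy and could be followed on the Cast allele. Zfp280c had 25 and 31 Cast reads against 27 to 69 in the reference libraries, with a difference of -0.78 ± 0.26 (edgeR adjusted p = 0.051). It was called lower in 7 alternatives, among them the XX Rnf12+/- libraries as reference (-0.999, adjusted p = 0.0106) and a term per line (-0.72, adjusted p = 0.0286). Utp14a had 203 and 159 Cast reads against 171 to 309 and differed by -0.38 ± 0.17 (edgeR adjusted p = 0.162). Rbmx2, higher per copy, had 47 and 42 Cast reads against 19 to 41, above all 13 libraries in read number, while on the scale of Cast CPM Deletion C.2 (67.4) fell within their range (31.2 to 68.9), with a difference of 0.40 ± 0.23 (adjusted p = 0.29). Ocrl, with 61 and 71 Cast reads against 47 to 95, differed by -0.05 ± 0.18. Allelic reads were missing altogether for 13 of the 39 protein-coding genes, and depth set what could be seen of the rest.

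**Figure D3:**
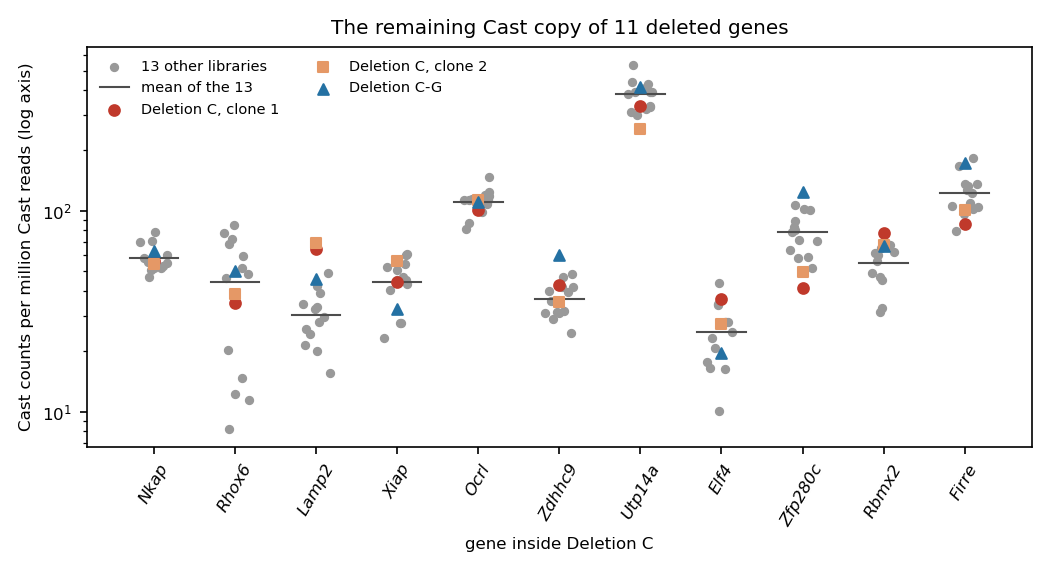
Cast CPM, which is Cast reads scaled to all Cast reads of the library (log y axis), of the 11 genes inside Deletion C with enough Cast reads (x axis), with a point for each library and a line at the mean of the 13. For Lamp2 both Deletion C clones lie above all 13 reference libraries (39 and 43 Cast reads against 9 to 28), and for Zfp280c both lie below them on this scale (41.2 and 49.7 against 52.1 or more).

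At the borders of the deletion, the nearest expressed genes outside kept reads of both alleles in both clones, with Akap17b as the exception. Pgrmc1 (X:36598206-36606079), left of the border, had 30 and 29 Mus reads and 16 and 19 Cast reads in the clones. Akap17b (X:36608314-36645395), a gene 12.21 kb outside the left border, had 8 Mus and 12 Cast reads in Deletion C.1 but 0 Mus and 11 Cast reads in Deletion C.2, and 0 of 11 allows a Mus share of up to 27.3%. Its level was 34.5 CPM in Deletion C.1 and 20.9 CPM in Deletion C.2, while the 11 reference libraries with 2 copies had 26.9 to 35.2 CPM and the Deletion B and AB libraries, with 1 copy, had 13.6 and 14.9 CPM. The clones thus differed at this gene, which was counted at 2 copies in both. Whether the 2 clones share the same left border was not tested. Slc25a5 is the first expressed gene inside (138 kb from the border) and Usp26 the last (151 kb). Gpc4 (X:52053021-52165252), a cell-surface proteoglycan 101 kb outside the right border, had 41.4 and 47.5 CPM against 45.5, 71.6 and 103 CPM in libraries with 2 copies. It was lower by -0.72 ± 0.22 (edgeR adjusted p = 0.0258), although 16 of 37 and 21 of 40 of its allelic reads were Mus. In the 5 Mb to the right, 2 of 22 expressed genes were higher and 2 lower with a median of 0.01, and in the 5 Mb to the left the 8 expressed genes had a median of 0.06 and a range of -0.15 to 0.27.

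On the X outside the deletion, 46 of 430 genes were higher and 46 lower per copy, 10.7% in each direction. Rlim, the ubiquitin ligase that promotes X inactivation and is present at 1 copy in all these cells, had 376 and 281 CPM in the clones against 140, 190 and 262 CPM in the reference libraries and 164 CPM in Deletion C-G. Both clones were above all 13 libraries, and the difference was 0.76 ± 0.17 (edgeR adjusted p = 0.0046), which was lost without Deletion C.1 (0.54, adjusted p = 0.18). Xist, the RNA that silences an X, was at 2.68 and 0.939 CPM against 0.200 to 9.54 CPM, below the level needed for a test. Wdr44, a Rab11-binding protein, had 41.7 and 41.1 CPM per copy against 14.5, 18.9 and 22.3 CPM per copy. It was higher by 1.14 ± 0.13 (edgeR adjusted p = 2.79e-05), and by 0.61 (adjusted p = 0.0814) against the XX Rnf12+/- libraries. The other largest rises were Gm18336 (1.36), Gpr143 (1.25), Gm4779 (1.16) and the ubiquitin ligase gene Rnf128 (1.14). The calls of Gm18336 (adjusted p = 0.136 and 0.0911), Gpr143 (0.0675 and 0.366) and Gm4779 (0.163 and 0.199) were lost without Deletion C.1 and without Deletion C.2, respectively. The largest falls were Glod5 (-1.69), Tsx (-1.30), Mid1ip1 (-1.27), Pdzd4 (-1.26) and Pcyt1b (-1.18, a phosphatidylcholine synthesis gene). For Tsx the clones overlapped the reference libraries, and its call was lost without Deletion C.1 (0.112), without Deletion C.2 (0.249) and against the XX Rnf12+/- libraries (0.192). The Glod5 call was lost with the replicate number as a block and without either clone. Without Deletion C.1, 14 X genes outside were higher and 9 lower, and without Deletion C.2, 7 were higher and 9 lower.

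Across the autosomes, 1334 of 11204 genes were higher (11.9%) and 1375 lower (12.3%), and 377 of these 2709 differed at least 2-fold. Without Deletion C.1, 412 were higher and 331 lower, and without Deletion C.2, 344 and 247. The 13 libraries include pairs of clones of a line, and with a term for each line 2250 were higher and 2101 lower. Both clones lay above all 13 libraries for 13.5% of autosomal genes and below for 12.8%. Of the large rises among protein-coding genes of that kind, 9 are described here. Ereg, a ligand of the EGF receptor, had 13.4 and 10.99 CPM against 1.14, 2.39 and 4.10 CPM (log2 fold change 2.39 ± 0.26, edgeR adjusted p = 2.11e-05), a call that was lost with the XX Rnf12+/- libraries. The matrix-associated genes Ccn1 (236 and 233 CPM against 29.3 to 97.0) and Ccn2 (312 and 338 CPM against 50.3 to 127) rose by 2.27 ± 0.28 and 1.99 ± 0.22. The remaining rises were Phlda1 (2.23), Tbc1d9 (2.15), the zinc exporter Slc30a1 (2.14), the urokinase receptor Plaur (2.03), the transcriptional inhibitor Id2 (2.01) and Ppp1r10 (1.95), a subunit of protein phosphatase 1.

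Falls of comparable size were seen in Fgf17, a fibroblast growth factor, with 7.84 and 5.73 CPM against 17.0, 39.3 and 65.5 CPM (-2.44 ± 0.43, edgeR adjusted p = 0.000765). Hpdl, a mitochondrial dioxygenase-like gene, had 6.03 and 4.13 CPM against 18.6, 23.5 and 30.8 CPM (-2.25 ± 0.22, adjusted p = 7.52e-06). Ankrd34a (-2.81), D630039A03Rik (-2.25), Bbs12 (-2.09), Jph4 (-2.07), Pirt (-1.98), Fcgr2b (-1.89), Bbs10 (-1.88) and the repressor gene Bcl6b (-1.88) completed the list. The calls of Jph4 (adjusted p = 0.0569 and 0.128) and Fcgr2b (0.195 and 0.15) were lost without Deletion C.1 and without Deletion C.2, that of Bbs12 without Deletion C.1 (0.0675) and that of D630039A03Rik without Deletion C.2 (0.0519). Bbs10 and Bbs12 encode chaperonin-like proteins of the complex that assembles the BBSome. Deletion C-G lay within the range of the 13 libraries for all 9 of these rises and for 9 of the 10 falls, with Bbs12 as the exception (1.92 CPM against 2.22 to 7.27).

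**Figure D4:**
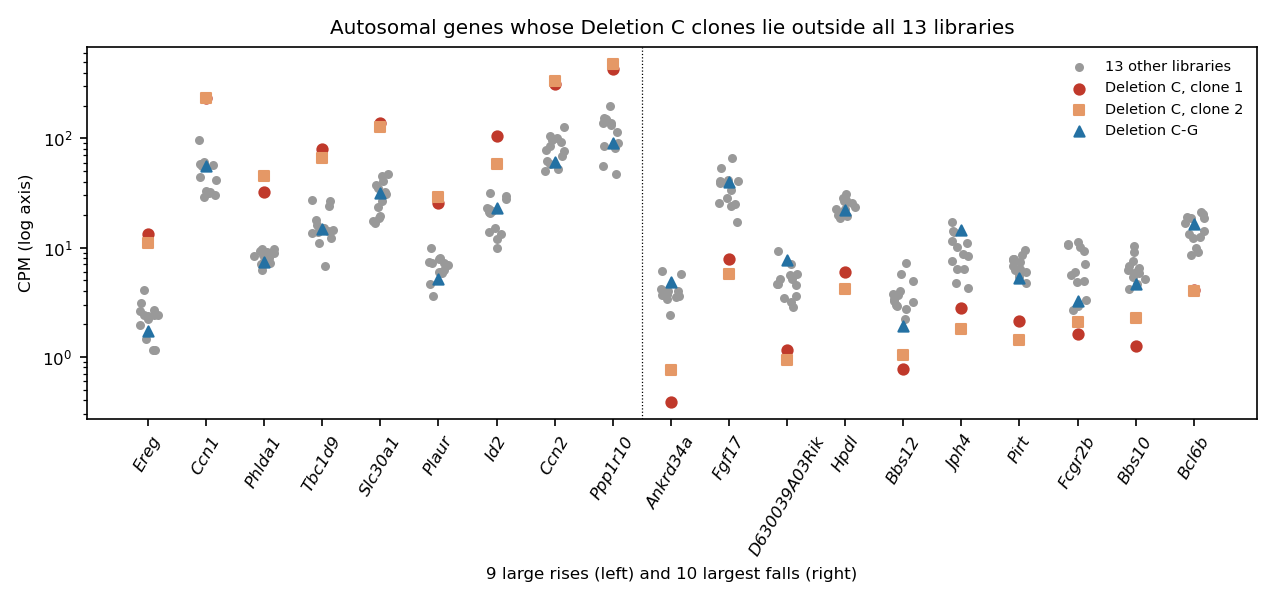
CPM (log y axis) of 9 large autosomal rises (left) and the 10 largest falls (right) in each library, chosen because both Deletion C clones lay outside all 13 reference libraries. Ereg lies at 10.99 CPM or more in the clones and at 4.10 CPM or less in the 13 libraries, and Deletion C-G lies among the reference libraries for 18 of the 19 genes.

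The gene lists were chosen with earlier results of these data known, and they are described by their counts and medians beside the autosomal background of 11.9% higher and 12.3% lower. That background belongs to the test with both clones. Without 1 of the Deletion C clones far fewer autosomal genes were called. List counts from those fits are therefore not to be set beside it, and a smaller count there is not particular to a list. Paralogs of the deleted genes, related genes elsewhere in the genome, were higher for 7 of 27 (25.9%) and lower for 3, with a median of 0.20. Ube2b, the paralog of Ube2a, had 110 and 120 CPM against 61.0, 69.7 and 80.3 CPM (0.72 ± 0.10, edgeR adjusted p = 0.000116). Lamp1, the paralog of Lamp2, had 520 and 549 CPM against 282, 377 and 454 CPM (0.49 ± 0.13, adjusted p = 0.0144). Hs6st1 (0.91), Mbnl2 (1.52), Rap2b (0.47), Elf1 (0.77) and Elf2 (0.51) were the other rises, and Enox1, Rnf113a2 and Sept11 fell. Hs6st2 and Mbnl3, the deleted relatives of Hs6st1 and Mbnl2, did not reach the expression minimum. They had at most 70 and 111 reads in any of the 15 libraries, so little RNA of them was there to lose. Partner proteins of the deleted genes were higher for 3 of 22 (Thoc3, Rad21 and C1galt1) and lower for 1 (Htra2), with a median of 0.00, and C1galt1 turned direction with the XX Rnf12+/- libraries (-0.30). Thoc3 and Rad21 were not called there, and without Deletion C.2 none of the 3 rises was called. Nuclear-encoded complex I genes had 1 member of 36 lower (Ndufv1) and a median of -0.16. Without Deletion C.1, 4 paralogs were higher and 1 lower, and without Deletion C.2, 2 and 1.

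Targets of the p53 pathway, which stop the cell cycle or repair damage, were higher for 6 of 12 genes with a median of 0.50. Mdm2, the ubiquitin ligase of p53, had 320 and 279 CPM against 111, 142 and 168 CPM (1.06 ± 0.13, edgeR adjusted p = 4.9e-05). Trp53inp1 (1.04), Ccng1 (0.73), Sesn2 (0.97), Eda2r (0.65) and Cdkn1a (0.59) rose as well, the last with 197 and 194 CPM against 92.1 to 199 CPM, so that its clones overlapped the highest reference library. The count was 4 without Deletion C.1, 3 without Deletion C.2 and 1 with the XX Rnf12+/- libraries, for which Mdm2 (adjusted p = 0.0714), Ccng1 (0.648) and Trp53inp1 (0.219) did not pass. In the integrated stress response, 7 of 14 genes fell and 2 rose (Atf4 and Sesn2), with a median of -0.48. Ddit4, an inhibitor of mTOR signalling, had 108 and 92.4 CPM against 194, 297 and 477 CPM (-1.62 ± 0.35, edgeR adjusted p = 0.0032), a call lost without Deletion C.2 (adjusted p = 0.0805) and with the XX Rnf12+/- libraries (-0.10, adjusted p = 0.894). Stc2 (-1.31), Psat1 (-0.80), Slc7a5 (-0.78), Mthfd2 (-0.68), Phgdh (-0.48) and Asns (-0.48), mostly amino acid and one-carbon genes, also fell, while the transcription factor gene Atf4 rose by 0.45. Only 1 of the 14 was lower with the XX Rnf12+/- libraries, 2 without Deletion C.1 and 1 without Deletion C.2.

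More genes fell than rose in the formative and core stem cell lists. In the formative and primed list, 5 of 14 fell (Lef1, Sox3, Sox4, Etv4 and Grhl2) with a median of -0.74, and the count was 2 without Deletion C.1 and 1 without Deletion C.2. Etv4, a transcription factor of the FGF response, had 27.1 and 27.2 CPM against 45.4, 63.0 and 106 CPM (-1.25 ± 0.24, edgeR adjusted p = 0.00134). The core list had 3 of 11 lower (Utf1, Tdgf1 and Dppa4, median -0.38). Of 15 naive genes, 1 rose (Nr5a2, a call lost in most settings) and 1 fell, Prdm14, at 34.1 and 32.7 CPM against 59.8, 68.4 and 85.3 CPM (-1.08 ± 0.13, edgeR adjusted p = 5.72e-05). DNA methylation genes fell in 3 of 10 (Tet1, Zfp57 and Trim28, median -0.47). Zfp57, which protects imprints, had 183 and 253 CPM against 302, 433 and 501 CPM (-0.96 ± 0.18, adjusted p = 0.00122), and 0.0651 without Deletion C.1. Germline genes that are silenced by methylation rose in 5 of 13 (Dazl, Ddx4, Sycp3, Tex19.1 and Tex19.2, median 0.47) and fell in 1 (Zbtb32). Tex19.1 had 206 and 243 CPM against 64.3, 94.8 and 140 CPM (1.20 ± 0.17, edgeR adjusted p = 0.000147), and the count of rises was 2 without Deletion C.1 and 3 without Deletion C.2. The core and methylation counts were smaller without either clone. With the XX Rnf12+/- libraries 5 core genes and 5 methylation genes fell and 8 germline genes rose. That reference is of another batch, and the share of all genes called against it is not given here. The larger counts therefore have no background to be set beside. Of 16 FGF and MAPK targets, Dusp5, Spred2 and Fosl1 rose and Etv4 fell, with a median of 0.09, and the 3 rises were not called with the XX Rnf12+/- libraries (2 were called without Deletion C.1 and 1 without Deletion C.2). Dusp5, a phosphatase of ERK, had 56.2 and 55.2 CPM against 13.4, 23.5 and 29.3 CPM (1.28 ± 0.20, edgeR adjusted p = 0.000326).

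**Figure D5:**
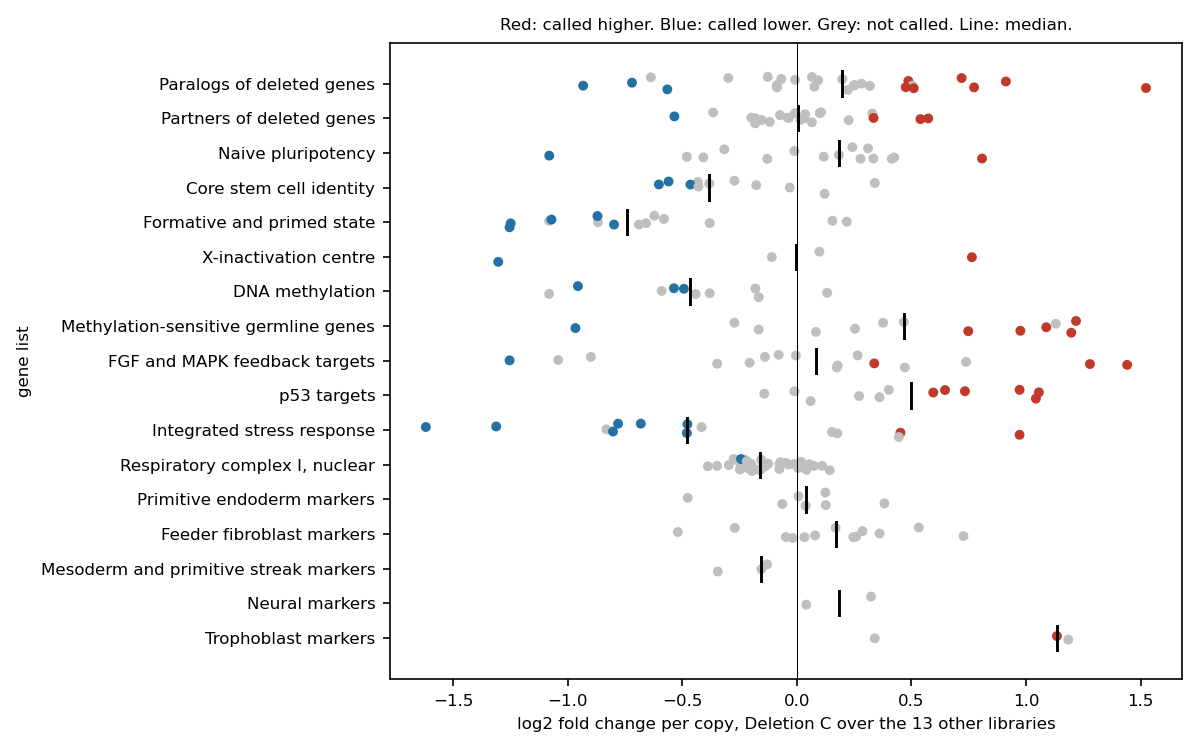
Log2 fold change per copy, Deletion C over the 13 other libraries (x axis), for the tested genes of each list (y axis), with called genes in red (higher) or blue (lower), the rest in grey and the list median as a line. The p53 targets lie mostly to the right (median 0.50), the integrated stress response (-0.48) and formative and primed genes (-0.74) to the left, and complex I near 0 (-0.16).

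Of the markers of other cell types, Krt8, a keratin of trophoblast and other epithelia, was called higher (1.13 ± 0.36, edgeR adjusted p = 0.0281). It had 36.5 and 29.2 CPM in the clones against 5.70, 15.6 and 31.8 CPM. That call was lost without Deletion C.1 (0.96, adjusted p = 0.255) and without Deletion C.2 (1.29, adjusted p = 0.125). The trophoblast list had a median of 1.13 over 3 tested genes, of which 2 were not called. Its sum was 200 and 154 CPM against 61.3 to 207 CPM, with Tpbpa at 0. The feeder and primitive endoderm lists had medians of 0.17 and 0.04 over 13 and 7 tested genes. The mesoderm list (22.5 and 19.16 CPM against 17.5 to 31.6), the neural list (90.01 and 87.9 against 48.3 to 112) and the two-cell-like list (6.03 and 5.35 against 0.901 to 11.9) lay within the range of the other libraries, with Neurog2 at 0 in the clones. Whether cell composition has a part in the lists above was not tested.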

How the data were processed

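Libraries were prepared by the authors with a stranded mRNA kit after feeder cells had been depleted by pre-plating, and sequenced as paired 50-base reads. Per the labels and the study's methods, reads were trimmed (Trim Galore 0.6.7), aligned (HISAT2 2.2.1, SAMtools 1.10) to mm10 masked at the 129/Sv and Cast/Ei variants, divided by allele and counted per gene of Ensembl release 98. The labels name HTSeq 0.12.4 for counting and the methods another counter. The authors deposited raw counts per gene and library, in total and per allele, and 181 gene identifiers without annotation (at most 0.004% of counts) were left out. Depth was 8816184 to 10680026 counts per library.

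Genes with a mean over 5 TPM in the 2 XX Rnf12+/- libraries were tested with edgeR 4.0.16 (R 4.3.3; quasi-likelihood test, TMM factors from autosomal genes, Benjamini-Hochberg adjustment over all 11681 genes, threshold 0.05) in 15 libraries. The number of gene copies entered as an offset for the test per copy and was left out for total counts, and Cast counts were tested the same way. SEs were derived from the F statistic. Reads of overlapping or near-identical genes may be divided unequally. Clones are the replicates, and nothing in the labels links numbers across lines. The genes named inside the deletion are the protein-coding genes called per copy or on the Cast allele, Rhox5 and the border genes. Outside, they are Rlim, Xist, the 10 largest rises and falls among called autosomal protein-coding genes whose clones lie outside all 13 libraries, the 5 largest of each sign on the X, and up to 4 called members of each list, together with further called members. A gene among the 10 rises is not reported here. Members and lists were chosen with earlier results of these data known. Alternatives were DESeq2 1.42.0, other scalings, filters and priors, a term per line, a block for the replicate number, another reference, and leaving out each library. The code was tested on simulated counts without a copy offset. Of 100 genes changed by 0.5 on the log2 scale 22 were called, and of 100 changed by 1 78 were. Of 11481 unchanged genes 6 were called. A gene that did not pass the test can thus still have changed. Each simulated library was drawn independently, with no difference shared by the clones of a line. The 6 calls are therefore no measure of calls that come from line differences in the real comparison. Promoters come from RefSeq (GRCm38.p6). Guide sequences were not used here.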

Additional observations from a re-analysis of the deposited data

How the results depend on the processing

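The count of genes inside the deletion lower in total count (33 of 47), the median difference per copy inside it computed from CPM (-0.04) and the counts of autosomal and X genes outside stayed within 1.5 times, or within 1 SD, of their value under other scalings, filters and priors. With a term per line, 73 X genes outside were higher and 88 lower, 2250 autosomal genes were higher and 2101 lower, and 1 Cast count inside was lower. With DESeq2, 1 Cast count was lower. With the XX Rnf12+/- libraries of another batch as reference, none of the total counts inside was higher (0), and 1 Cast count was lower. There the batch and the reference cannot be told apart. Among protein-coding genes only, 5 genes inside were lower per copy. With at least 50 Cast counts, 0 were higher and 1 lower on the Cast allele (edgeR). With all gene types the Mus share of allelic counts was 4.83%, against a mean of the clones' shares of 3.6%. The causes were not tested. Leaving out 1 library in turn gave 24 to 34 genes inside lower and 0 to 1 higher in total count, 2 to 7 higher and 3 to 8 lower per copy, 0 to 1 higher and 0 to 1 lower on the Cast allele, 7 to 50 higher and 9 to 56 lower X genes outside, 344 to 1454 higher and 247 to 1522 lower autosomal genes, a median of -0.09 to -0.01 and a Mus share of 3.04% to 4.16%. The lowest counts came from leaving out a Deletion C clone, which leaves 1 library that is assumed to vary like the other lines.

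Replicate numbers were not shown to pair clones across lines: over 15 pairs of lines, the correlation of the differences between clones was -0.15 to 0.29 (median 0.08), and 7 were over 0.1. With the replicate number as a block, 1262 autosomal genes were higher and 1258 lower, 39 X genes outside were higher and 43 lower, 5 genes inside were higher and 8 lower per copy, and 33 were lower in total count, and 1 was higher and 0 lower on the Cast allele. Under the block the calls of Rap2c, Glod5, Thoc3, Nr5a2 and Spred2 were lost. Direction turned with the XX Rnf12+/- libraries for Rap2c (-0.38), C1galt1 (-0.30) and the Cast counts of Rhox6 (0.26), Xiap (-0.65) and Firre (0.43), and, leaving out 1 clone, for the Cast counts of Ocrl (0.040 without Deletion C.1 and -0.14 without Deletion C.2) and Zdhhc9 (-0.040 and 0.24). Over the 92 values of named genes, the XX Rnf12+/- libraries ended 23 calls, leaving out Deletion C.1 ended 37 and leaving out Deletion C.2 ended 41. The 92 values include the Cast tests of 11 genes, of which only that of Lamp2 was called, so the other Cast values had no call to end. At 12.18% to 12.65% allelic reads, 11 genes inside had enough Cast counts for a test, which limits what could be seen of the remaining copy.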
